A study of Mus musculus with 20 samples.

Results

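The integrated stress response and the unfolded protein response were followed through 10 genes among the 37620 of the count table. In the order of their roles they were the transcription factors Atf4 and Ddit3, the ATF4 targets Trib3, Asns, Chac1 and Ppp1r15a, the ER (endoplasmic reticulum) chaperones and co-chaperones Hspa5, Dnajb9 and Sdf2l1, and the ER-associated degradation gene Herpud1. All 10 genes had reads in every mouse, and all 10 passed the filter on low counts in each comparison.

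In the integrated stress response, kinases that sense different stresses phosphorylate the initiation factor eIF2α, which slows most translation but favours translation of the Atf4 mRNA. ATF4 protein then switches on genes for amino acid supply and for the recovery of translation. In the unfolded protein response, the ER sensors PERK (Eif2ak3), IRE1 (Ern1) and ATF6 answer misfolded protein by raising chaperones and degradation factors, and PERK joins that response to the ATF4 arm.

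Bulk bone marrow RNA was sequenced from 20 mice in 4 groups of 5. Donor marrow carrying a doxycycline-inducible human U2AF1(S34F) or U2AF1(WT) transgene together with the reverse tetracycline transactivator was pooled from 2 to 3 donor mice aged 8 weeks or older and given to lethally irradiated congenic wild-type recipients aged 6 to 12 weeks, matched by sex to their donors. U2AF1 is the spliceosome subunit that contacts the AG dinucleotide at the 3′ end of introns, S34F is a substitution found recurrently in myeloid malignancies, and sudemycin D6 is a small molecule that binds the SF3B1 complex of the spliceosome. More than 6 weeks after transplantation all 4 groups ate doxycycline chow at 625 ppm for 7 days, so the controls too expressed a U2AF1 transgene. On the last 5 of these days each mouse received 4-h intravenous infusions, of vehicle or of sudemycin D6 at 50 mg per kg per day, and RNA was taken 18 h after the last infusion. Each genotype thus had 5 mice with vehicle and 5 with the drug. Mice of 1 genotype shared pooled donors, and the recipients kept their own wild-type stroma, so the p-values measure the spread between recipient mice. In bulk marrow, fewer cells of a type and less RNA per cell cannot be told apart.

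The promoters of 6 of the 10 genes held a short element known from these pathways, and the stretches are printed here to show which gene held which element. Herpud1, of the ER arm, held the CARE of the ATF4 targets as well as an ER stress element. All 10 genes had a promoter entry in RefSeq (GRCm38.p6), each of 250 bases before and 50 bases from the start, and positions count from +1 at the first transcribed base. Only the first entry listed for a gene was searched, so other starts of a gene were not covered. Capitals mark the element, and each was searched on both strands: the C/EBP-ATF response element (CARE) as TGATGNAA, the cyclic AMP response element (CRE) as TGACGTCA, the ER stress element (ERSE) as CCAAT and CCACG with any 9 bases between them and its second form (ERSE-II) as ATTGG and CCACG with any 1 base between them. No 2 of the printed elements overlap. The Trib3 element lay behind the start, at +15 to +22.
Trib3 (CARE on the reverse strand, chr2:152344028-152344057, minus strand): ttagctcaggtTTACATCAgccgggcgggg
Asns (CARE, chr6:7693210-7693254, minus strand): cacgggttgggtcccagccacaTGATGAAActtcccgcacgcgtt
Chac1 (CARE on the reverse strand, chr2:119351027-119351078, plus strand): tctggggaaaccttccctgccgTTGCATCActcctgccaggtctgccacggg
Ppp1r15a (CRE, chr7:45526269-45526302, minus strand): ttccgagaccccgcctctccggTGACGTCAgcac
Hspa5 (ERSE, chr2:34772003-34772065, plus strand): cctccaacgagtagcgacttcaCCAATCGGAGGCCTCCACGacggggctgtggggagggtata
Herpud1 (CARE on the reverse strand, then ERSE-II, chr8:94386295-94386409, plus strand): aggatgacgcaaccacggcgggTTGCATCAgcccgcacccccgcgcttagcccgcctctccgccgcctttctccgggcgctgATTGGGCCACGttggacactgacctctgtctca

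Of 32851 promoters of the same length, 3.97% held the CARE, 1.79% the CRE, 0.119% the ERSE and 0.0365% the ERSE-II. Among the 10 genes the CARE was found in 4 and each of the other elements in 1. A further ER element, searched as TGACGTGG, was found in none of the 10 and in 0.676% of all promoters. The windows of Atf4, Ddit3, Dnajb9 and Sdf2l1 held none of these letters. The match of letters is a description of the window and says nothing of a factor bound there.

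Libraries held between 41145892 and 62138138 counts on genes (median 51836276) and between 34384214 and 64813149 on splice junctions. The defining genes of neutrophils, B cells, plasma cells, erythroid cells, monocytes and megakaryocytes were read in every group. Of the 8 genes for the recipients' stroma and osteoblasts, the osteoblast gene Bglap was at or under 3 counts in all mice of 3 groups. Among sudemycin-treated U2AF1(WT) mice, mice 8 and 9 stood apart from the other three. Their summed neutrophil genes were at 56576 and 66028 CPM (counts scaled to a common library size) against 38254.5 to 41254.5 CPM, and their summed B cell genes at 40.1 and 27.4 CPM against 149 to 183 CPM. Several results below are given with and without these mice, but not every one, and no list count is given without both. Mouse 2 of the vehicle-treated U2AF1(WT) group also had a low B cell sum, at 43.1 CPM against 125 to 151 CPM in the rest of its group. Its monocyte sum was the highest of the group, at 1248 CPM against 854 to 1074 CPM, and its neutrophil sum the lowest, at 39737 CPM. The genotypes also differed in sex-linked transcripts: Xist lay between 879 and 1590 CPM in the U2AF1(WT) mice and at or below 0.145 CPM in the U2AF1(S34F) mice. The Y-linked Eif2s3y was at 0 CPM in the former and between 76.8 and 105 CPM in the latter. Thus, in each comparison of genotypes, the transgene, the donor pool and the sex of the mice cannot be told apart.

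The levels of the 10 genes spanned more than 2 orders of magnitude. On the scale of CPM per kilobase of exon, which allows comparison between genes, the mean levels in vehicle-treated U2AF1(WT) marrow were highest for Hspa5 at 169 and Atf4 at 142. Herpud1 followed at 36.5 and Ppp1r15a at 25.9, Sdf2l1 at 20.96, Dnajb9 at 19.2 and Asns at 16.5. Ddit3 stood at 10.1, Chac1 at 2.79 and Trib3, at the bottom, at 0.453 CPM per kilobase. All other levels are in CPM of the whole gene, with the mean ± SD of 5 mice.

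Atf4, the factor that gives the response its output, was at 279.9, 179, 247, 269.7 and 244 CPM in the vehicle-treated U2AF1(WT) mice, and at 164, 162, 150.2, 153 and 179 CPM after sudemycin. In U2AF1(S34F) mice it was at 155, 147, 128, 114 and 115 CPM with vehicle and at 131, 104, 111, 115 and 128 CPM with sudemycin. The vehicle-treated U2AF1(WT) group (244 ± 39.1) lay above the other three groups without overlap, although its mouse 2 came within 1 CPM of the highest treated mouse. The means of the other three groups were 162 ± 11.1, 132 ± 18.6 and 118 ± 11.3 CPM, and each of these ranges overlapped its neighbour's.

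Ddit3, which encodes the stress-induced factor CHOP, was also highest in the vehicle-treated U2AF1(WT) mice, at a lower level. It was at 19.4, 13.5, 16.8, 19.2 and 17.2 CPM in the vehicle-treated and at 11.4, 9.33, 10.9, 9.96 and 9.75 CPM in the sudemycin-treated U2AF1(WT) mice. The values with U2AF1(S34F) were 10.8, 10.8, 10.4, 9.12 and 10.4 CPM with vehicle and 7.51, 8.40, 6.87, 6.90 and 8.95 CPM with sudemycin. The drug alone (10.3 ± 0.861) and the mutation alone (10.3 ± 0.705) gave overlapping levels, with all vehicle-treated U2AF1(WT) mice above them and all mice with both below them. Ddit3 overlaps Mars and a further gene on the other strand, and whether the counting used strand is not given in the sources used here.

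Ppp1r15a encodes GADD34, which leads a phosphatase to eIF2α and so ends the block on translation. Its level was 90.01, 66.7, 68.7, 81.2 and 73.5 CPM in the vehicle-treated and 31.1, 33.4, 41.9, 38.2 and 29.4 CPM in the sudemycin-treated U2AF1(WT) mice. With U2AF1(S34F) it was 25.04, 18.6, 14.4, 9.34 and 11.4 CPM with vehicle and 16.5, 8.23, 8.63, 13.6 and 10.4 CPM with sudemycin. The vehicle-treated U2AF1(WT) mice, the sudemycin-treated U2AF1(WT) mice and all 10 U2AF1(S34F) mice formed 3 ranges that did not overlap, and the 2 treatments overlapped within U2AF1(S34F). Ppp1r15a overlaps Tulp2 on the other strand.

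Asns, the asparagine synthetase, had the opposite order of group means to Atf4. It was at 38.6, 54.5, 42.2, 45.9 and 45.01 CPM in the vehicle-treated and at 46.6, 80.4, 81.2, 39.2 and 35.2 CPM in the sudemycin-treated U2AF1(WT) mice. With mutant U2AF1 it was at 54.6, 53.5, 65.3, 102 and 78.2 CPM with vehicle and at 64.6, 70.4, 89.8, 62.8 and 85.9 CPM with sudemycin. The sudemycin-treated U2AF1(WT) group was split, since mice 8 and 9 had the high values and the other three lay in the range of the vehicle-treated group or below it. Chac1, which degrades glutathione, lay between 2.27 and 6.64 CPM in all 20 mice, with overlapping groups at 4.56 ± 1.58, 4.97 ± 0.733, 4.07 ± 0.522 and 3.70 ± 0.492 CPM in the order given above. Trib3, a pseudokinase that restrains ATF4 signalling, was near the limit of these libraries, with 31 to 65 counts a mouse and 0.580 to 1.32 CPM.

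In the ER arm, Hspa5 encodes BiP, the main chaperone of the ER lumen. It was at 569, 719, 496, 585 and 607 CPM in the vehicle-treated and at 527, 391, 386, 521 and 486 CPM in the sudemycin-treated U2AF1(WT) mice, the lowest 2 of which were again mice 8 and 9. The U2AF1(S34F) values were 544, 447, 534, 413 and 429 CPM with vehicle and 530.2, 451, 463, 525 and 529 CPM with sudemycin. All 4 groups overlapped their neighbours in order, at 595 ± 80.9, 462 ± 68.97, 474 ± 61.1 and 499.6 ± 39.1 CPM. Sdf2l1, a partner of BiP in the ER lumen, was at 22.9, 38.3, 16.1, 19.3 and 19.5 CPM in the vehicle-treated and at 24.5, 19.3, 21.4, 26.3 and 20.6 CPM in the sudemycin-treated U2AF1(WT) mice. In U2AF1(S34F) mice it was at 27.6, 22.9, 30.7, 19.0 and 24.7 CPM with vehicle and at 31.1, 29.0, 29.8, 37.5 and 26.8 CPM with sudemycin. Mice with both the mutation and the drug were all above the sudemycin-treated U2AF1(WT) mice. Mouse 2 of the vehicle-treated U2AF1(WT) group held the highest value of its group in both Hspa5 and Sdf2l1, and the lowest in Atf4, Ddit3, Ppp1r15a, Dnajb9 and Chac1.

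Dnajb9, a co-chaperone of BiP that also restrains IRE1, was at 34.3, 28.7, 39.7, 33.2 and 43.0 CPM in the vehicle-treated and at 22.8, 20.5, 23.8, 20.95 and 21.6 CPM in the sudemycin-treated U2AF1(WT) mice. The mutant mice had 29.5, 19.3, 20.6, 18.6 and 18.1 CPM with vehicle and 20.8, 13.8, 16.9, 16.3 and 16.6 CPM with sudemycin. Its order of groups was that of Atf4, and only mouse 1 of the vehicle-treated U2AF1(S34F) group reached into the range of the vehicle-treated U2AF1(WT) mice. Herpud1, a membrane protein that serves the ER ubiquitin ligase complex, had the smallest SD relative to its mean in all groups but the sudemycin-treated U2AF1(WT) mice, at 85.2 ± 1.83, 71.6 ± 7.74, 75.9 ± 2.31 and 67.8 ± 2.86 CPM. It was at 86.2, 87.3, 83.1, 85.9 and 83.5 CPM in the vehicle-treated and at 70.5, 68.2, 84.0, 72.3 and 63.1 CPM in the sudemycin-treated U2AF1(WT) mice. With U2AF1(S34F) it was at 76.9, 76.5, 72.1, 75.6 and 78.2 CPM with vehicle and at 67.03, 69.3, 66.7, 64.2 and 71.8 CPM with sudemycin. Mouse 9 alone kept the sudemycin-treated U2AF1(WT) group from lying wholly below its vehicle group. Herpud1 overlaps the gene Gm15890 on the other strand.

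**Figure D1:**
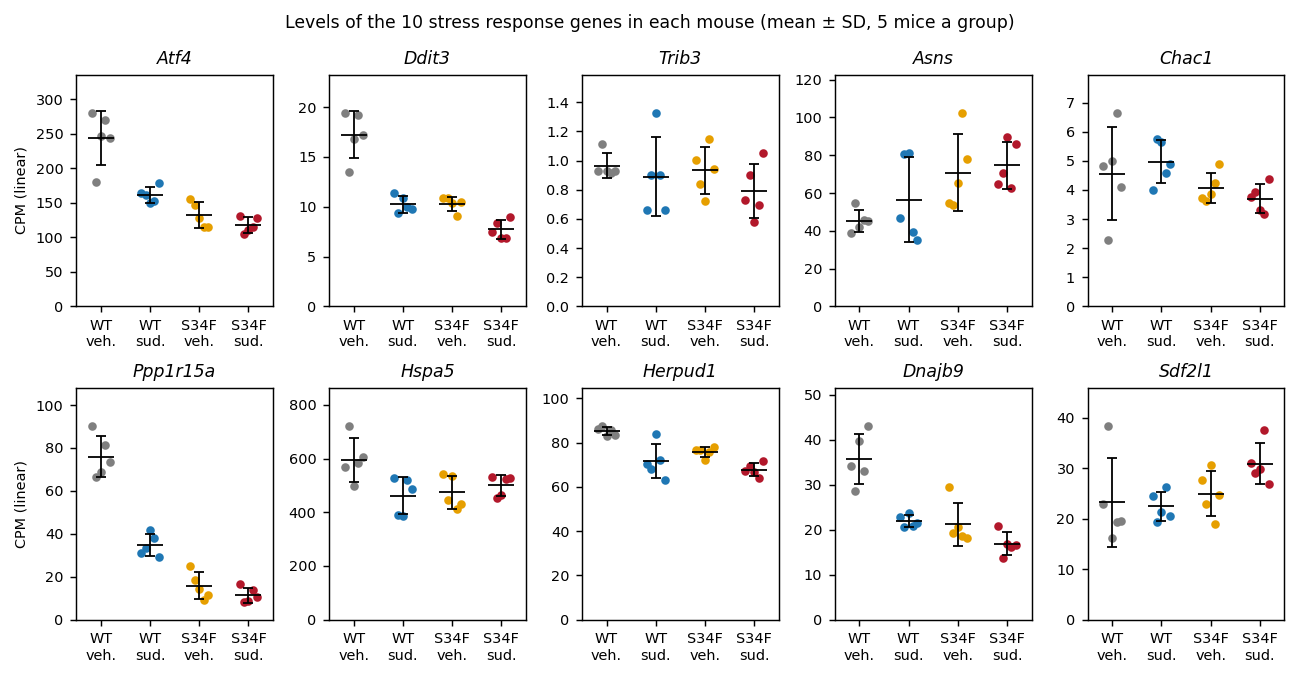
Level of each of the 10 genes in each of 20 mice (CPM, one panel a gene, points for mice, bars for the group mean and SD of 5 mice). The vehicle-treated U2AF1(WT) mice lay above the other three groups without overlap in Atf4, Ddit3 and Ppp1r15a, whereas Trib3 and Chac1 overlapped in all groups.

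The first comparison asked what sudemycin D6 did to these genes in marrow with wild-type U2AF1. Atf4, Ddit3, Ppp1r15a and Dnajb9 fell, and none of the 10 genes rose. That is 4 of 10 genes at FDR<10% by edgeR's quasi-likelihood test, where 3.07% of 14763 genes were called in either direction, 1.18% higher and 1.89% lower. Ppp1r15a fell by 1.15 ± 0.116 on the log2 scale (± SE), or 2.22-fold (edgeR FDR 0.000308), and Ddit3 fell by 0.76 ± 0.118, or 1.70-fold (edgeR FDR 0.00543). Dnajb9 fell by 0.73 ± 0.108, or 1.65-fold (edgeR FDR 0.00418), and Atf4 fell by 0.62 ± 0.115, or 1.53-fold (edgeR FDR 0.0166). In each of these 4 genes all 5 treated mice were below all 5 vehicle-treated mice, and the 4 calls held with each mouse left out in turn and with mice 8 and 9 left out together. The share of all genes whose groups did not overlap was not counted, here or in the comparisons below. The 10 genes were chosen with earlier results of these data known, so their counts beside the shares of all genes are a description.

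The remaining 6 genes did not pass the test in U2AF1(WT) marrow. Hspa5 differed by -0.38 ± 0.130 (edgeR FDR 0.195) and Herpud1 by -0.27 ± 0.0829 (edgeR FDR 0.143). Herpud1 was called once mouse 9 was left out (-0.33, edgeR FDR 0.0460). Asns differed by 0.30 ± 0.223 (edgeR FDR 0.623), a value that turned to -0.16 without mice 8 and 9, so that no direction can be given for it. Chac1, Trib3 and Sdf2l1 had log2 differences of 0.10, -0.13 and -0.07, with edgeR FDRs of 0.914, 0.885 and 0.935. Over the 10 genes the median log2 difference was -0.33, against 0.0040 over all genes tested.

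In U2AF1(S34F) marrow the drug lowered Ddit3 and Herpud1, which is 2 of 10 genes where 10.8% of 14714 genes were called in either direction, 4.94% higher and 5.85% lower. Ddit3 fell by 0.42 ± 0.0979, or 1.34-fold (edgeR FDR 0.0292), without overlap of the groups. Herpud1 fell by 0.16 ± 0.0483, or 1.12-fold (edgeR FDR 0.0665), also without overlap. The Herpud1 call was lost without any one of vehicle mice 1, 3 and 11 or sudemycin mice 2, 9 and 10 (edgeR FDR 0.103 to 0.141), while the Ddit3 call held without each mouse. Leaving out vehicle mouse 1 or sudemycin mouse 2 also took the count over all genes from 1588 to 952 or 913.

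The other 8 genes did not pass the test in U2AF1(S34F) marrow, 3 of which had passed it in U2AF1(WT) marrow. Atf4 differed by -0.17 ± 0.0958 (edgeR FDR 0.330), Ppp1r15a by -0.46 ± 0.275 (edgeR FDR 0.356) and Dnajb9 by -0.33 ± 0.140 (edgeR FDR 0.186). Sdf2l1 had the largest positive difference, 0.30 ± 0.123 (edgeR FDR 0.173), and it passed once vehicle mouse 5 was left out (0.39, edgeR FDR 0.0722). Hspa5 and Asns both differed by 0.07, Chac1 by -0.14 and Trib3 by -0.23, with edgeR FDRs between 0.551 and 0.849. The median over the 10 genes was -0.17, against -0.0091 over all genes tested.

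Whether the drug change itself differed between genotypes was tested as an interaction over all 20 mice. None of the 10 genes passed, where 0.013% of 15392 genes were called. At an unadjusted p under 0.05 there were 4 of 10 genes by edgeR, where 7.43% of all genes tested had such a p, and DESeq2 also called none of the 10. The largest terms among them were Ppp1r15a at 0.67 ± 0.312 (edgeR FDR 0.653), Hspa5 at 0.44 ± 0.160 (edgeR FDR 0.492) and Atf4 at 0.43 ± 0.154 (edgeR FDR 0.491). A positive term means that the log2 change with sudemycin was higher in U2AF1(S34F) than in U2AF1(WT) mice. The 95% interval of the term ran from 0.11 to 0.76 for Atf4 and from -0.10 to 0.28 for Herpud1. The 2 genes called were Atf3, an ATF4 partner treated below, and Gla, a lysosomal galactosidase outside these pathways that is named here after its value was seen (1.12 ± 0.131, edgeR FDR 0.000382).

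With both genotypes in 1 model with a term for genotype, sudemycin lowered 5 of the 10 genes, where 15% of 15392 genes were called in either direction, 7.78% higher and 7.22% lower. Ddit3 fell by 0.58 ± 0.0803 (edgeR FDR 7.33e-05), Ppp1r15a by 0.80 ± 0.172 (edgeR FDR 0.00560) and Dnajb9 by 0.52 ± 0.0987 (edgeR FDR 0.00176). Atf4 fell by 0.38 ± 0.0885 (edgeR FDR 0.00835) and Herpud1 by 0.21 ± 0.0454 (edgeR FDR 0.00568). These 5 calls came from the same mice as the within-genotype comparisons above and add no samples to them. Chac1, at -0.01 ± 0.135, was the gene nearest to no difference (edgeR FDR 0.989).

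**Figure D2:**
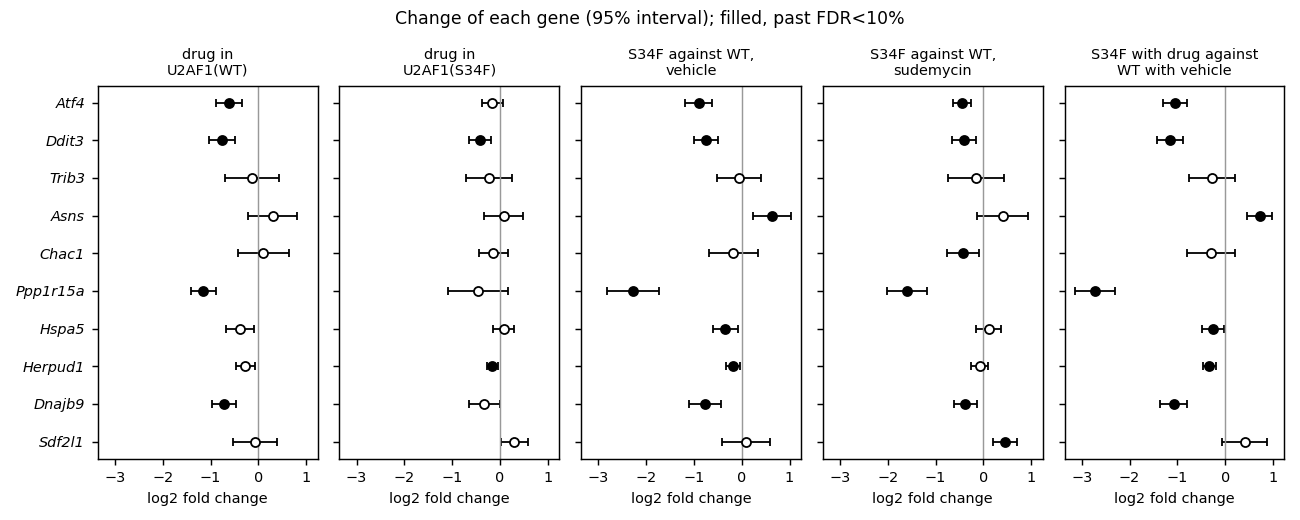
Log2 fold change of each of the 10 genes in 5 comparisons of 2 groups (edgeR, bars for the 95% interval, filled points at FDR<10%). Ppp1r15a moved furthest in each comparison, from -0.46 on the log2 scale with the drug in U2AF1(S34F) mice, where it was not called, to -2.72 with mutation and drug together.

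Mutant U2AF1 was compared with wild-type U2AF1 first in vehicle-treated mice. Here 6 of the 10 genes were lower and Asns was higher in U2AF1(S34F) marrow, which makes 7 of 10 called where 39.5% of 14817 genes were called, 19.7% higher and 19.8% lower. Ppp1r15a fell by 2.28 ± 0.236 on the log2 scale, or 4.87-fold (edgeR FDR 0.000132). Atf4 fell by 0.90 ± 0.122, or 1.86-fold (edgeR FDR 0.000256), and Ddit3 by 0.75 ± 0.106, or 1.68-fold (edgeR FDR 0.000329). In these 3 genes all U2AF1(S34F) mice were below all U2AF1(WT) mice.

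In the ER arm the same comparison gave smaller differences, apart from Dnajb9. Dnajb9 fell by 0.76 ± 0.143, or 1.70-fold (edgeR FDR 0.00196), and Hspa5 by 0.34 ± 0.114, or 1.27-fold (edgeR FDR 0.0360), with overlapping groups in both. Herpud1 fell by 0.18 ± 0.0604, or 1.13-fold, without overlap (edgeR FDR 0.0376), and that call was lost when genes with low counts were kept (edgeR FDR 0.143). Asns rose by 0.64 ± 0.172, or 1.55-fold, with overlapping groups (edgeR FDR 0.0162). Trib3 at -0.06, Chac1 at -0.17 and Sdf2l1 at 0.09 did not pass (edgeR FDRs of 0.853, 0.588 and 0.780). Sdf2l1 passed once vehicle-treated U2AF1(WT) mouse 2, its highest mouse, was left out (0.35, edgeR FDR 0.0600). The median over the 10 genes was -0.26, against 0.0021 over all genes.

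In sudemycin-treated mice the genotypes differed in 6 of the 10 genes, 5 lower and 1 higher in U2AF1(S34F), where 36.8% of 14677 genes were called, 17.2% higher and 19.6% lower. Ppp1r15a again fell most, by 1.60 ± 0.184 or 3.04-fold (edgeR FDR 0.000159), followed by Atf4 at 0.46 ± 0.0815 or 1.37-fold lower (edgeR FDR 0.00208) and Ddit3 at 0.41 ± 0.111 or 1.33-fold lower (edgeR FDR 0.0163). None of these 3 genes overlapped between the groups. Dnajb9 fell by 0.38 ± 0.102 or 1.30-fold (edgeR FDR 0.0166), with overlap. Sdf2l1 rose by 0.45 ± 0.110 or 1.37-fold without overlap (edgeR FDR 0.0102). It was the only one of the 4 ER genes called higher by edgeR in any of the 7 comparisons.

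Chac1 and Asns depended on single mice here. Chac1 fell by 0.42 ± 0.146 (edgeR FDR 0.0488), and this call was lost without sudemycin-treated U2AF1(S34F) mouse 9 or 10 or U2AF1(WT) mouse 8 (edgeR FDR 0.111 to 0.121) and without U2AF1(WT) mice 8 and 9 together (-0.27, edgeR FDR 0.196). Asns did not pass (0.40 ± 0.229, edgeR FDR 0.211), but passed without U2AF1(WT) mouse 8 (0.57, edgeR FDR 0.0897), without mouse 9 (0.58, edgeR FDR 0.0822) and without both (0.90, edgeR FDR 0.000937). Hspa5 at 0.11, Herpud1 at -0.08 and Trib3 at -0.16 did not pass (edgeR FDRs of 0.512, 0.462 and 0.675).

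Mice with both the mutation and the drug were then set against mice with neither. Of the 10 genes, 6 were lower and Asns was higher, 7 of 10 called where 50.2% of 14761 genes were called and 25.1% in each direction. Ppp1r15a fell by 2.72 ± 0.185 or 6.61-fold (edgeR FDR 1.1e-06), Ddit3 by 1.15 ± 0.117 or 2.22-fold (edgeR FDR 1.20e-05) and Atf4 by 1.05 ± 0.112 or 2.07-fold (edgeR FDR 1.92e-05). Dnajb9 fell by 1.08 ± 0.121 or 2.11-fold (edgeR FDR 2.95e-05) and Herpud1 by 0.33 ± 0.0588 or 1.26-fold (edgeR FDR 0.000836). Asns rose by 0.72 ± 0.115 or 1.65-fold (edgeR FDR 0.000412). These 6 genes did not overlap between the groups, a count with no share over all genes to set beside it. Hspa5 fell by 0.25 ± 0.0973 (edgeR FDR 0.0508) with overlap, a call that was lost without sudemycin-treated U2AF1(S34F) mouse 6 or 9 (edgeR FDR 0.110 and 0.111).

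Sdf2l1 (0.41 ± 0.202, edgeR FDR 0.125), Chac1 (-0.30 ± 0.220, edgeR FDR 0.296) and Trib3 (-0.27 ± 0.206, edgeR FDR 0.305) did not pass in that comparison. Without vehicle-treated U2AF1(WT) mouse 2, Sdf2l1 (0.66, edgeR FDR 0.000270) and Chac1 (-0.47, edgeR FDR 0.0240) both passed. The comparisons of drug, of genotype and of both together share mice: the vehicle-treated U2AF1(WT) mice enter 3 of them, so their values stand side by side here and are not independent of each other.

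The wider pathways were followed through 7 lists, none of which contains the 10 genes. These lists too were chosen with earlier results of these data known, so their counts beside the shares of all genes are a description. For every list, the shares of all genes called were 3.07% and 10.8% with the drug in U2AF1(WT) and U2AF1(S34F) mice. With mutation and drug together the share was 50.2%, with 25.1% in each direction. The first list held eIF2α kinases and regulators, of which 14 were tested. With the drug in U2AF1(WT) mice 1 of 14 was lower, Impact (-0.41, edgeR FDR 0.0999), and in U2AF1(S34F) mice 1 was higher, Eif2b2 (0.20, edgeR FDR 0.0917), and 1 lower, Eif2ak2 (-0.39, edgeR FDR 0.00904). Between genotypes 4 were higher and 1 lower with vehicle, and 2 were higher and 2 lower with sudemycin. The largest of these were Eif2s1, the α subunit of eIF2 itself, at 0.55 and 0.63 (edgeR FDR 0.00414 and 0.00497), and Gcn1l1, an activator of GCN2, at -0.47 and -0.50 (edgeR FDR 0.00177 and 0.000221). With mutation and drug together 4 were higher and 4 lower, 57.1% of the list. The list's median lay between 0.01 and 0.08 in these 5 comparisons. The genotype calls were 35.7% and 28.6% of the list under the 2 treatments, below the 39.5% and 36.8% of all genes, and with vehicle they fell from 5 to 2 without U2AF1(S34F) mouse 1 or 11 and to 3 without U2AF1(WT) mouse 1, 3 or 5. The drug call in U2AF1(WT) mice was lost in 7 of the 10 ways of leaving out a mouse (vehicle mice 1, 3 and 5, sudemycin mice 6, 8, 9 and 10) and became 2 without vehicle mouse 2, and the 2 in U2AF1(S34F) mice became 1 in 8 of 10 (all but vehicle mice 3 and 5).

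The kinases themselves were mostly not called. The genes for HRI (Eif2ak1) and PERK (Eif2ak3) were called in none of the 7 comparisons by edgeR, with log2 differences between -0.20 and 0.12 for Eif2ak1 and between -0.14 and 0.07 for Eif2ak3 over the 5 comparisons of 2 groups. GCN2 (Eif2ak4) was called only with mutation and drug together, at -0.19 ± 0.0733 (edgeR FDR 0.0541). PKR (Eif2ak2), the kinase that answers double-stranded RNA, was at 41.5 ± 6.75 and 38.5 ± 6.88 CPM in the vehicle- and sudemycin-treated U2AF1(WT) mice and at 35.9 ± 3.12 and 27.4 ± 1.90 CPM in the corresponding U2AF1(S34F) mice. It was lower with mutation and drug than with neither by 0.60 ± 0.106 on the log2 scale (edgeR FDR 0.000777).

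Further ATF4 targets and partners, 38 in the list and 33 to 34 tested, did not move in 1 direction. The drug lowered 2 and raised none in U2AF1(WT) mice (median -0.06), and it lowered 3 and raised 2 in U2AF1(S34F) mice (median 0.04). U2AF1(S34F) marrow had 15 lower and 2 higher with vehicle (median -0.25) and 8 lower and 5 higher with sudemycin (median -0.08). With mutation and drug together 14 were lower and 9 higher (median -0.10), 69.7% of the list where 50.2% of all genes were called. Thus 51.5% of the list was called between genotypes with vehicle and 39.4% with sudemycin, where 39.5% and 36.8% of all genes were. Leaving out vehicle-treated U2AF1(WT) mouse 2 took the calls for the drug in U2AF1(WT) mice from 2 to 5, and leaving out mouse 9 took them to 4. For the drug in U2AF1(S34F) mice the 5 calls fell to 2 without vehicle mouse 1 and to 3 without any one of vehicle mouse 3 and sudemycin mice 2, 9, 10 and 12.

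Slc7a11, the cystine transporter, was lower in all 5 comparisons of 2 groups. It was at 94.2, 48.4, 88.1, 78.8 and 100.4 CPM in the vehicle-treated and at 40.98, 27.9, 42.3, 31.2 and 29.2 CPM in the sudemycin-treated U2AF1(WT) mice, without overlap. Mutant mice had 58.3, 42.1, 36.6, 22.9 and 25.99 CPM with vehicle and 27.7, 15.7, 19.4, 16.7 and 23.0 CPM with sudemycin, with overlap. The log2 change with the drug was -1.27 ± 0.185 in U2AF1(WT) mice (edgeR FDR 0.00417) and -0.86 ± 0.254 in U2AF1(S34F) mice (edgeR FDR 0.0758). After Atf3, the largest called falls of the list in U2AF1(S34F) marrow were those of Ddit4 (-1.25), Slc7a11 (-1.15) and Cebpb (-1.11) with vehicle and of Slc6a9 (-0.95), Gadd45a (-0.89) and Slc7a11 (-0.75) with sudemycin. Slc7a3, a transporter of cationic amino acids, rose by 1.60 with mutation and drug together (edgeR FDR 0.00388), at a level near the limit of these libraries. It was at 0.146 CPM (2 to 15 counts a mouse) in vehicle-treated U2AF1(WT) mice. With mutation and drug it was at 0.525 CPM (15 to 40 counts).

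Atf3, a stress factor that pairs with ATF4 and CHOP, was the gene of these lists with the largest change. It was at 97.3, 60.1, 58.7, 59.5 and 67.4 CPM in the vehicle-treated and at 11.8, 14.8, 16.995, 13.6 and 8.12 CPM in the sudemycin-treated U2AF1(WT) mice. The U2AF1(S34F) mice had 6.07, 4.82, 5.56, 3.11 and 4.24 CPM with vehicle and 6.43, 4.19, 3.52, 5.67 and 3.83 CPM with sudemycin. The U2AF1(S34F) treatments overlapped throughout, and both lay below every U2AF1(WT) mouse. The drug change was -2.41 ± 0.196 in U2AF1(WT) mice (edgeR FDR 6.07e-05) and -0.01 ± 0.206 in U2AF1(S34F) mice (edgeR FDR 0.980), and the difference between them was 2.38 ± 0.301 (edgeR FDR 0.000994).

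Levels of 11 immediate-early genes, which cells switch on within minutes of a stimulus, are set beside these. Their summed level was 5031, 2934, 5091, 6275 and 4713 CPM in the vehicle-treated and 2542, 2721, 3142, 2700 and 2740 CPM in the sudemycin-treated U2AF1(WT) mice. The sum was, with U2AF1(S34F), 1772, 1381, 1336, 1055 and 1384 CPM with vehicle and 1188, 959, 1019, 1056 and 1050 CPM with sudemycin. Of the 11 genes, 7 were lower with the drug in U2AF1(WT) marrow and 5 in U2AF1(S34F) marrow, none higher. Over all genes 1.89% and 5.85% were lower in these 2 comparisons. Between genotypes all 11 were lower in U2AF1(S34F) marrow under either treatment. Over all genes 19.8% were lower there with vehicle and 19.6% with sudemycin. Egr1 fell by 2.27 with the drug in U2AF1(WT) mice (edgeR FDR 0.00273), and Fosb fell by 3.40 with the mutation under vehicle (edgeR FDR 3.12e-05). The list's median was -0.60 and -0.43 with the drug and -2.03 and -1.46 with the mutation. Mouse 2, the lowest vehicle-treated U2AF1(WT) mouse in Atf4 and Ppp1r15a, was also the lowest of its group in this sum. With the drug in U2AF1(S34F) mice 5 of the 11 fell, and Ddit3 was called lower (-0.42, edgeR FDR 0.0292). None of Atf4, Ppp1r15a and Atf3 was called there. The part of the early response in the levels of Atf4, Ddit3, Ppp1r15a and Atf3 was not tested.

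**Figure D3:**
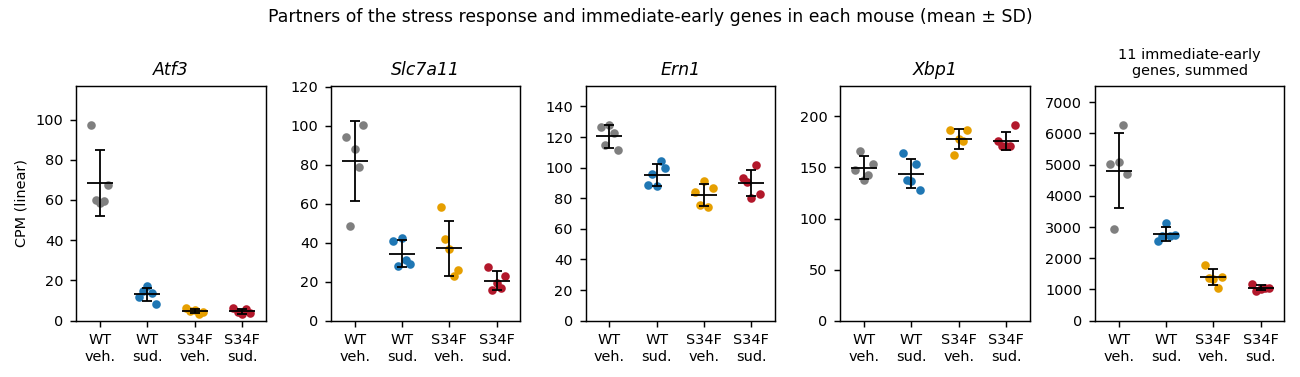
Levels of Atf3, Slc7a11, Ern1 and Xbp1 and the summed level of 11 immediate-early genes in each of 20 mice (CPM, points for mice, bars for the group mean and SD of 5 mice). Atf3 lay between 58.7 and 97.3 CPM in the vehicle-treated U2AF1(WT) mice and at or below 16.995 CPM in all others.

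Among the 13 aminoacyl-tRNA synthetase and tRNA export genes of the ATF4 programme, calls were all upwards. With the drug 1 rose in U2AF1(WT) mice, Gars (0.43, edgeR FDR 0.0433), and 3 rose in U2AF1(S34F) mice, Yars (0.31), Gars (0.30) and Aars (0.23). Between genotypes 1 rose with vehicle, Xpot (0.19), and 1 with sudemycin, Tars (0.37). With mutation and drug together 6 rose, led by Tars (0.51, edgeR FDR 0.00346), Gars (0.48, edgeR FDR 0.000732) and Xpot (0.40, edgeR FDR 0.00261). That was 46.2% of the list, where 50.2% of all genes were called and 25.1% were higher. The list's medians ran from 0.01 to 0.17 over these comparisons. Between genotypes the calls were 7.69% of the list under each treatment, below the 39.5% and 36.8% of all genes, and with a mouse left out they ran from 0 to 3 (with vehicle 0 without U2AF1(S34F) mouse 1, 3 or 11 or U2AF1(WT) mouse 3, 2 without U2AF1(S34F) mouse 7 and 3 without U2AF1(WT) mouse 2, and with sudemycin 0 without U2AF1(S34F) mouse 10 or U2AF1(WT) mouse 12, 2 without U2AF1(S34F) mouse 6 or U2AF1(WT) mouse 10 and 3 without U2AF1(WT) mouse 6). In the drug comparisons the calls fell to 0 without any one of U2AF1(WT) vehicle mice 1, 3 and 5 and sudemycin mouse 12, and to 1 without U2AF1(S34F) vehicle mouse 1 or sudemycin mouse 2 or 10, and rose to 5 without sudemycin mouse 6.

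Of the 9 UPR sensors and transcription factors, Ern1 and Creb3l2 were lower and Xbp1 was higher in several comparisons. Ern1, which encodes IRE1α, was at 120.5 ± 7.35 CPM in the vehicle-treated and 95.3 ± 7.02 CPM in the sudemycin-treated U2AF1(WT) mice, and at 82.3 ± 7.13 and 89.8 ± 8.61 CPM in the corresponding U2AF1(S34F) mice. It fell by 0.36 ± 0.0810 with the drug in U2AF1(WT) mice (edgeR FDR 0.0435) and by 0.56 ± 0.0811 with the mutation under vehicle (edgeR FDR 0.000373). With the drug in U2AF1(S34F) mice it differed by 0.12 ± 0.0786 (edgeR FDR 0.382), and the test of the difference between genotypes did not pass (0.47 ± 0.109, edgeR FDR 0.229).

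Xbp1, whose mRNA is the substrate of IRE1, was higher in U2AF1(S34F) marrow by 0.24 ± 0.0779 with vehicle (edgeR FDR 0.0343) and by 0.28 ± 0.0832 with sudemycin (edgeR FDR 0.0246). The drug left it at -0.07 ± 0.0929 and -0.02 ± 0.0603 in the 2 genotypes (edgeR FDR 0.801 and 0.900). Atf6 passed only between genotypes with sudemycin, at 0.15 ± 0.0635 (edgeR FDR 0.0887). Creb3l2, an ER-anchored factor, fell by 0.48 with the drug in U2AF1(WT) mice (edgeR FDR 0.0586) and by 0.86 with the mutation under vehicle (edgeR FDR 0.000374). With the drug 2 of 9 were lower in U2AF1(WT) mice (median -0.04), a count that fell to 0 without vehicle mouse 1 or 3 and to 1 without vehicle mouse 4 or 5 or sudemycin mouse 8 or 12, and 1 was higher in U2AF1(S34F) mice, Atf6b (0.27, edgeR FDR 0.0394, median 0.12). Genotype gave 1 higher and 3 lower with vehicle (median -0.15) and 2 higher and 1 lower with sudemycin (median -0.04). These were 44.4% and 33.3% of the list, near the 39.5% and 36.8% of all genes, and the count with sudemycin fell from 3 to 1 without any one of U2AF1(S34F) mice 2 and 6 and U2AF1(WT) mice 6, 8, 10 and 12. The IRE1-spliced form of Xbp1 lacks 26 bases, and it could not be read here. None of the 20 Xbp1 junctions in the junction table spans 26 bases, and the shortest intron among junctions assigned to a single gene was 70 bases.

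Most other genes of the ER did not fall where Hspa5, Dnajb9 and Herpud1 did. Of 28 further ER chaperones and folding enzymes, none was called with the drug in U2AF1(WT) mice (median -0.05), where 3.07% of all genes were. In U2AF1(S34F) mice 3 were higher, among them Hyou1 (0.29, edgeR FDR 0.0910), and 1 was lower, Sdf2 (-0.18, edgeR FDR 0.0796), with a median of 0.13. All 10 ways of leaving out a mouse moved these 4 calls, to between 0 and 8. U2AF1(S34F) marrow had 6 higher and 2 lower with vehicle (median 0.11) and 13 higher and 2 lower with sudemycin (median 0.24). This was 28.6% of the list with vehicle, below the 39.5% of all genes, and 53.6% with sudemycin, above the 36.8% of all genes. The largest rises with sudemycin were Calr (0.62, edgeR FDR 0.00331), Canx (0.51, edgeR FDR 0.00529), P4hb (0.49, edgeR FDR 0.00115) and Pdia6 (0.49, edgeR FDR 0.0128). With mutation and drug together 16 were higher and 3 lower (median 0.29), 67.9% of the list where 50.2% of all genes were called.

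Of 20 genes of ER translocation and export, 8 were higher and 1 lower in U2AF1(S34F) marrow with vehicle (median 0.14), and 13 were higher and none lower with sudemycin (median 0.22). This was 45% and 65% of the list, against the same shares of all genes. Sec61g, a subunit of the translocation channel, was highest in both, at 0.74 and 0.94 (edgeR FDR 0.0278 and 0.00627). The drug raised none in U2AF1(WT) mice (median 0.02) and 1, Ssr2 (0.25), in U2AF1(S34F) mice (median 0.09), a call that was lost in 7 of the 10 ways of leaving out a mouse. With mutation and drug together 14 were higher and none lower (median 0.26), 70% of the list where 50.2% of all genes were called. The vehicle counts of the ER lists rested partly on vehicle-treated U2AF1(WT) mouse 2. Without it the calls rose from 8 to 19 among chaperones, from 9 to 14 in translocation and export and from 6 to 10 in degradation, and without mouse 3 those among chaperones fell to 5.

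Of 22 genes of ER-associated degradation, the drug raised 1 in U2AF1(WT) mice, Derl2 (0.35, edgeR FDR 0.0927), and 2 in U2AF1(S34F) mice, Derl2 (0.26, edgeR FDR 0.0119) and Nploc4 (0.16, edgeR FDR 0.0795). The former call was lost in 8 of the 10 ways of leaving out a mouse (all but vehicle mouse 2 and sudemycin mouse 10), and the latter 2 became 1 in 8 of 10 (all but vehicle mice 5 and 7). Genotype gave 4 higher and 2 lower with vehicle and 5 higher and 5 lower with sudemycin. These were 27.3% of the list with vehicle and 45.5% with sudemycin, where 39.5% and 36.8% of all genes were called, and the latter count of 10 fell to 6 without U2AF1(S34F) mouse 2 or 12 and to 5 without U2AF1(S34F) mouse 6. Syvn1, the HRD1 ubiquitin ligase that Herpud1 serves, was lowest in both, at -1.21 ± 0.148 (edgeR FDR 0.000150) and -0.93 ± 0.134 (edgeR FDR 0.000651). Rnf5, another ER ligase, was also lower in both, at -0.58 and -0.67. The medians of the list were 0.06 and 0.08 with the drug in the 2 genotypes and 0.04 and 0.01 with the mutation under the 2 treatments. With mutation and drug together 9 were higher and 3 lower (median 0.07), 54.5% of the list where 50.2% of all genes were called.

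**Figure D4:**
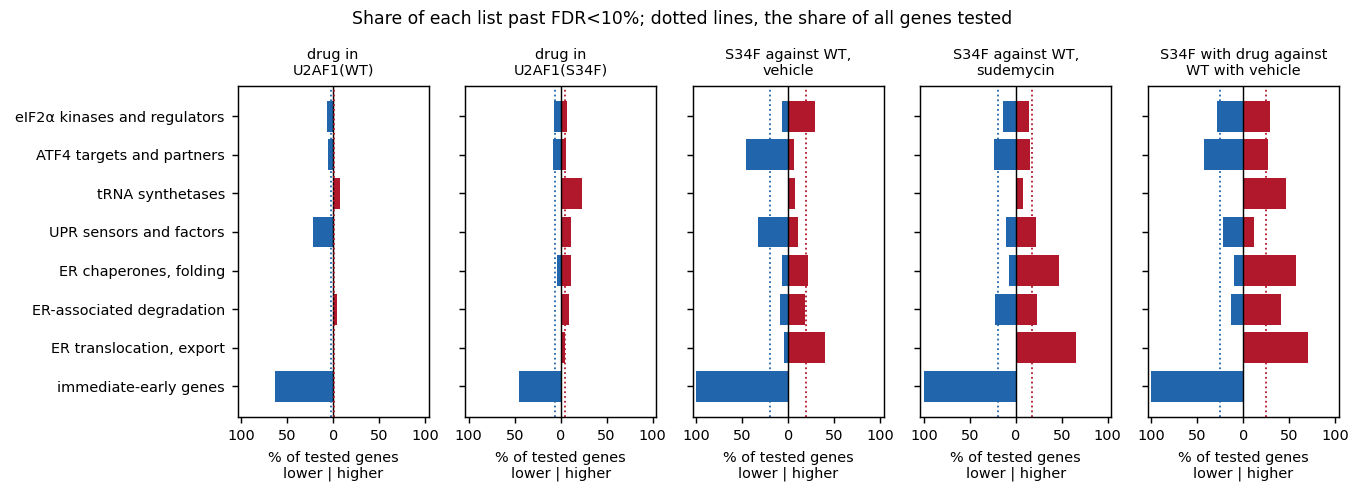
Percentage of each list's tested genes called higher (to the right) and lower (to the left) at FDR<10% by edgeR in each comparison, with the share over all genes tested beside them. The 11 immediate-early genes were all lower in U2AF1(S34F) marrow, whereas 13 of 20 genes of ER translocation and export were higher in it with sudemycin.

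Markers of marrow cell types moved in the same comparisons. Between genotypes with sudemycin 5 of 8 B cell genes and 4 of 8 plasma cell genes were lower, and with mutation and drug together 8 of 8 and 6 of 8 were lower. Over all genes 19.6% and 25.1% were lower in these 2 comparisons. Between genotypes with vehicle none of the B cell genes and 2 of the plasma cell genes were lower, where 19.8% of all genes were. Summed plasma cell genes ranged from 289 to 489 CPM and from 251 to 529 CPM in vehicle- and sudemycin-treated U2AF1(WT) mice and from 255 to 524 CPM and from 215 to 316 CPM in the corresponding U2AF1(S34F) mice. Of 8 neutrophil genes 4 were higher in U2AF1(S34F) marrow with vehicle and 2 with sudemycin, where 19.7% and 17.2% of all genes were. None of the neutrophil genes was called with the drug in either genotype, where 3.07% and 10.8% of all genes were. Their sums ranged from 39737 to 45701 CPM in vehicle-treated U2AF1(WT) mice and from 53132 to 83820 CPM in vehicle-treated U2AF1(S34F) mice, without overlap. Between genotypes, monocyte genes had 1 higher and 3 lower with vehicle and 2 higher and 1 lower with sudemycin. Megakaryocyte genes had 1 higher and 2 lower, then 2 lower. Erythroid genes had 1 lower, then 3 lower, and stromal genes 2 higher and 2 lower, then 1 lower. With the drug, 1 of 8 B cell genes and 1 of 8 monocyte genes were lower in U2AF1(WT) mice, where 1.89% of all genes were. In U2AF1(S34F) mice 2 each of the plasma cell, erythroid and megakaryocyte genes and 1 stromal gene were lower, where 5.85% of all genes were. The part of cell composition in the levels of the 10 genes and of the ER lists was not tested.

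Splice junctions were examined because both the mutation and the drug act on the spliceosome. Each junction was tested for its use relative to the other junctions of its gene, and 45 junctions of 9 of the 10 genes were tested, none in Trib3. None of the tested junctions of these genes was called with the drug in either genotype. Over all junctions, 0.0552% of 124972 were called in U2AF1(WT) mice and 0.0941% of 125345 in U2AF1(S34F) mice. With shares this low, a set of this size would mostly hold no call, so the absence of calls does not show unchanged use. At an unadjusted p under 0.05 there was 1 of 43 in U2AF1(WT) and 0 of 42 in U2AF1(S34F) mice by edgeR, where 1.8% and 2.05% of all junctions tested had such a p, and limma called none either. Between genotypes 2 of 43 were called with vehicle, where 1.71% of 125410 junctions were called, and 2 of 43 with sudemycin, where 2.27% of 124013 were. In simulated counts with known changes, 22.6% of the junctions called lay in genes that had not been changed, above the 10% intended, so these calls are less certain than those of genes.

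The 3′ splice sites of the called junctions are printed because U2AF1 contacts this end of the intron and S34F is known to shift the preference for the base before the AG. The stretches are of mm9, the build of the deposited junctions, and show the last intron bases and the first 3 exon bases, with the last 3 intron bases in capitals.
Hspa5, chr2:34630938-34630960, plus strand: tttgtaatacaaggtcaGAGggg
Herpud1, chr8:96917676-96917698, plus strand: tgtttgtgctttcttcaAAGgca
Dnajb9, chr12:45309298-45309320, minus strand: actatgtttttctttctTAGgtt

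The base before the AG was G in Hspa5, A in Herpud1 and T in Dnajb9. The Hspa5 junction removes an intron of 91 bases between exons 5 and 6 of the 6 exons of a non-coding transcript (Hspa5-003). It had 25, 51, 0, 73 and 60 reads in the vehicle-treated and 42, 25, 0, 74 and 43 reads in the sudemycin-treated U2AF1(WT) mice. With U2AF1(S34F) it had 18, 0, 0, 0 and 0 reads with vehicle and 13, 0, 8, 8 and 0 reads with sudemycin. Its mean share of the reads on the gene's tested junctions was 0.269% and 0.280% in U2AF1(WT) and 0.0231% and 0.0350% in U2AF1(S34F) mice. Its relative use was lower in U2AF1(S34F) by 2.36 on the log2 scale with vehicle (edgeR FDR 0.00618) and by 2.08 with sudemycin (edgeR FDR 0.00696). The junction was rare everywhere, it was at 0 reads in 1 U2AF1(WT) mouse of each treatment, and the vehicle value ran from -5.71 to -2.08 as single mice were left out.

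The Herpud1 junction joins exons 6 and 7 of 8 across an intron of 1271 bases. It took 7.44, 8.48, 8.45, 9.001 and 7.80% of the gene's junction reads in the vehicle-treated U2AF1(WT) mice and 13.1, 12.6, 13.96, 11.7 and 12.1% in the vehicle-treated U2AF1(S34F) mice, without overlap. Its relative use was higher in the latter by 0.43 on the log2 scale (edgeR FDR 0.0184). The Dnajb9 junction joins exons 1 and 2 of 3 across an intron of 1626 bases. It took 30.7, 60.3, 57.2, 43.2 and 45.1% of the gene's junction reads in the sudemycin-treated U2AF1(WT) mice and 27.5, 28.4, 27.3, 26.1 and 26.7% in the sudemycin-treated U2AF1(S34F) mice, without overlap. Its relative use was lower in the latter by 0.56 (edgeR FDR 0.0417), a call that was lost without U2AF1(WT) mouse 8 (edgeR FDR 0.154), without mice 8 and 9 together (edgeR FDR 0.298) and without any one of the 5 U2AF1(S34F) mice (edgeR FDR 0.104 to 0.135). With vehicle the Dnajb9 junction was not called, at 33.3 to 45.5% in U2AF1(WT) and 25.8 to 33.1% in U2AF1(S34F) mice, also without overlap.

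**Figure D5:**
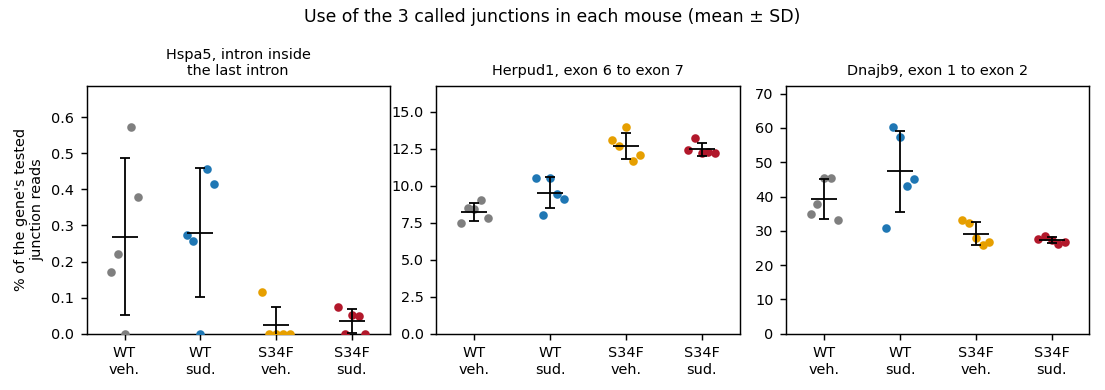
Share of each gene's junction reads (percent) on the 3 called junctions of Hspa5, Herpud1 and Dnajb9 in each of 20 mice (points for mice, bars for the group mean and SD of 5 mice). The Herpud1 junction lay between 7.44 and 9.001% in vehicle-treated U2AF1(WT) mice and between 11.7 and 13.96% in vehicle-treated U2AF1(S34F) mice.

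Whether the 10 genes varied together from mouse to mouse was examined over 20 mice after each group's mean was subtracted, for 45 pairs with permutations within groups. Past FDR<10% there were 7 pairs by Pearson's r, 4 of them positive. Hspa5 and Sdf2l1, the chaperone and its partner, rose and fell together (r = 0.74, permutation p = 0.00065, adjusted 0.0292, Spearman's rho = 0.69, permutation p = 0.00284, adjusted 0.0897). Trib3 and Herpud1 did so too (r = 0.77, permutation p = 0.00193, adjusted 0.0434, rho = 0.70, permutation p = 0.00402, adjusted 0.0897). Atf4 and Ppp1r15a were joined by r = 0.61 (permutation p = 0.00585, adjusted 0.0658, rho = 0.63, permutation p = 0.0114, adjusted 0.102). Without the 2 mice farthest from the median of the first gene, these r values were 0.63, 0.58 and 0.61.

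Asns ran against Atf4, with r = -0.53 (permutation p = 0.00528, adjusted 0.0658, rho = -0.58, permutation p = 0.00696, adjusted 0.0897) and r = -0.49 without the 2 farthest mice. Chac1 ran against Sdf2l1 (r = -0.75, permutation p = 0.00948, adjusted 0.0786, rho = -0.63, permutation p = 0.00797, adjusted 0.0897) and against Hspa5 (r = -0.60, permutation p = 0.0122, adjusted 0.0786, rho = -0.58, permutation p = 0.0162, adjusted 0.121). Without the 2 farthest mice these were -0.55 and -0.63. Ppp1r15a and Dnajb9 had r = 0.64 (permutation p = 0.0111, adjusted 0.0786), but rho = 0.46 (permutation p = 0.0657, adjusted 0.287) and r = 0.45 without the 2 farthest mice.

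For each arm, the genes most like its mean pattern over 20 mice were looked for, as a description with no test, since the mice share libraries, groups and depth. For the mean of Trib3, Asns, Chac1 and Ddit3, among 12224 genes, they were Csnk1e (r = 0.90), Otud5 (0.89), Msra (0.88), Cd300lb (0.88) and Ftsjd2 (0.87), and within groups these values were 0.85 to 0.90. For the mean of Hspa5, Herpud1, Dnajb9 and Sdf2l1 they were Atp10a (r = 0.89), Zfp106 (0.84), Chid1 (0.78), Rpl10-ps2 (0.78) and Tgif1 (0.78), with values within groups of 0.73, 0.57, 0.51, 0.63 and 0.37. None of these genes belongs to the lists above.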

How the data were processed

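Ribosomal RNA was depleted and stranded libraries were sequenced from bone marrow. The authors mapped the reads to mm9 (TopHat 2.0.8). The deposited values are whole-number counts of reads per gene (37620 genes) and per splice junction (554616 junctions), neither normalized nor pooled. The program that counted them and its use of strand are not given in the sources used here. All per-sample columns belonged to the 20 mice, and no 2 libraries of a group agreed within sampling noise (chi-square per degree of freedom at least 19.0).

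Symbols came from the mm9 annotation and were found for 37205 genes, among them all 219 of the lists. Genes were filtered with filterByExpr, scaled by TMM (trimmed mean of M values) and tested with edgeR 4.0.16 (R 4.3.3), using robust quasi-likelihood fits on the 2 groups compared, or on all 20 mice for the drug over both genotypes and the interaction. Benjamini-Hochberg FDR<10% over all genes tested made a call. Junctions were tested with edgeR's test of differential use within a gene, a choice made since the study's own tool was not at hand. CPM values used a scaling over 20 mice, and log2 values for correlations a prior count of 2 (Python 3.11.15, SciPy 1.17.1). On simulated counts for the drug in U2AF1(WT) mice, 82.5% of 200 genes changed by 1 on the log2 scale and 24.5% of 200 changed by 0.5 were recovered, and for junctions 57.5% of 200 changed by 1. Of the genes called in these simulations, 11.3% with changes of 1 and 7.55% with changes of 0.5 had not been changed, where 10% was intended.

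The 10 genes and all lists were chosen with earlier results of these data known. All 10 genes were named, and of each list the genes called with the largest log2 change (up to 4 a comparison). The stress sensors, the called junctions and the 5 genes most like the mean of 4 genes of each arm were named too. Alternatives were DESeq2 1.42.0, its size factors, other filters, 1 model of all mice, FDR<5%, limma 3.58.1 for junctions, a replicate block and each mouse left out. Leaving out mice 8 and 9 together was added after seeing the data. Promoter sequences came from RefSeq tables of GRCm38.p6, whose coordinates were not mixed with those of mm9.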

Additional observations from a re-analysis of the deposited data

Results flagged for a closer look

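In 40 sets of 5 mice (10 genes in 4 groups), a single mouse stood apart from the others of its group in 3 by Dixon's criterion (gap over range above 0.710), and chance alone gives about 1 in 20. Trib3 was at 1.12 CPM in vehicle-treated U2AF1(WT) mouse 2, with the nearest mouse at 0.930 CPM. Dnajb9 was at 29.5 CPM in vehicle-treated U2AF1(S34F) mouse 1, with the nearest at 20.6 CPM. Ddit3 was at 9.12 CPM in vehicle-treated U2AF1(S34F) mouse 7, with the nearest at 10.4 CPM.

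The drug change of Atf3 differed between genotypes by 2.38 on the log2 scale (edgeR FDR 0.000994 over 20 mice), since it fell in U2AF1(WT) mice and was near 0 in U2AF1(S34F) mice, where Atf3 was already at 3.11 to 6.07 CPM with vehicle.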

How the results depend on the processing

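Counts of called genes among the 10 ranged, over the alternatives other than leaving out mice, from 4 to 6 for the drug in U2AF1(WT) mice, 6 to 8 for mutation and drug together, and were 5 for the drug over both genotypes and 0 for the interaction. For the drug in U2AF1(S34F) mice the 2 calls became 1 with no filter, with 1 model of all mice and at FDR<5%, and 1 to 3 with a mouse left out. Over all genes the drug in U2AF1(WT) mice gave 453 calls by edgeR, 819 by DESeq2, 1072 with 1 model of all mice, 243 at FDR<5% and 191 to 730 with a mouse left out (lowest without vehicle mouse 1, highest without vehicle mouse 2). In U2AF1(S34F) mice the 1588 calls became 788 with 1 model and 826 at FDR<5%, the 2309 over both genotypes became 1513 at FDR<5%, and the 2 of the interaction became 116 by DESeq2 and 10 with no filter. Without mice 8 and 9 of the sudemycin-treated U2AF1(WT) group the direction turned for Asns (-0.16), Chac1 (-0.020) and Sdf2l1 (0.036) with the drug in U2AF1(WT) mice, for Trib3 (0.097) and Hspa5 (-0.025) between genotypes with sudemycin, for Asns (-0.023) over both genotypes, and for Trib3 (0.16) and Asns (0.27) in the interaction, none of them called. With single mice left out, uncalled values that turned ran from -0.067 to 0.27 (Chac1) and -0.18 to 0.19 (Sdf2l1) with the drug in U2AF1(WT) mice, -0.012 to 0.25 (Asns) in U2AF1(S34F) mice and -0.094 to 0.067 (Chac1) over both. Between genotypes they ran from -0.14 to 0.018 (Trib3), -0.34 to 0.0094 (Chac1) and -0.013 to 0.35 (Sdf2l1) with vehicle, from -0.27 to 0.026 (Trib3) with sudemycin, and from -0.21 to 0.089 (Trib3) in the interaction. Replicate numbers occur in both genotypes, but same-numbered mice deviated together by only -0.05 to 0.13 with vehicle and -0.11 to 0.21 with sudemycin, and the labels give the numbers no meaning. With a replicate block on the mice that share a number, 6 of 10 genes were called under each treatment, and the 2 called junctions became 1 with vehicle and 0 with sudemycin. The block uses 3 or 4 pairs only. Drug groups within a genotype share no numbers. Junctions called with sudemycin were also 1 without mice 8 and 9 and 1 to 3 with a mouse left out. Over all junctions the 2149 and 2810 genotype calls became 1303 and 1669 at FDR<5%, 5621 and 8426 by limma, and 414 and 712 under the block, and the 69 and 118 drug calls became 294 and 322 with at least 10 reads a junction on average. Pairs of correlated genes numbered 4 with DESeq2 size factors. The cause of these changes was not tested, except that fewer mice or another threshold follow from the alternative itself. Scaling moved the median of all genes by under 0.1 on the log2 scale. Trib3, at 31 to 65 counts a mouse, had SEs of 0.20 to 0.25 on the log2 scale in comparisons of 2 groups and 0.15 with the drug over both genotypes, so that changes of the size called in Herpud1 were under 2 of its SEs.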
